A study of Mus musculus with 2 samples.

Results

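The genes described here are the ligands and receptors of the tumor necrosis factor (TNF) superfamily, measured in unstimulated dendritic cells of 2 inbred mouse strains. They were taken by symbol from the deposited table: every single symbol that begins with Tnfsf or Tnfrsf, together with Tnf, Lta, Ltb, Ltbr, Cd40, Cd40lg, Cd27, Cd70, Fas, Fasl, Eda, Edar and Ngfr. This gave 43 of 21922 genes, 17 ligands and 26 receptors, each with 1 probe set, a group of array probes combined into 1 signal. The 2 samples were dendritic cells grown in culture from marrow of CBA/J and of C57BL/6 mice, neither treated. Marrow from normal mice of each strain was grown with a supernatant that contains GM-CSF and harvested on day 7. The cells were plated in replicate wells, and the wells of a strain were combined after 4 h to give total RNA for 1 Affymetrix Mouse Gene 1.0 ST array. Age, sex and the C57BL/6 substrain are not given in the sources used here. Such cultures also hold macrophages and granulocytes.

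Ligands of this family are mostly trimeric proteins on the surface of immune cells, from which some are shed, and they bind receptors on the same or on neighbouring cells. Receptors with a cytoplasmic death domain can start apoptosis, others recruit TRAF adaptor proteins and activate NF-kB, and decoy receptors bind a ligand without passing the signal on. On dendritic cells, Cd40 receives the signal of helper T cells, and Tnfsf4 and Tnfsf9 give costimulatory signals to T cells.

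All values are log2 signals, and a difference is the log2 signal in CBA/J minus that in C57BL/6. With 1 array per strain there is no replicate error, no test was possible, and a difference between strains cannot be told apart from one between cultures, animals or arrays. A gene reached the level rule when at least 1 array lay at or above that array's median over genes, 6.16 for CBA/J and 6.21 for C57BL/6, and 29 of the 43 genes did so. The size rule was a difference of at least 2-fold, which is 1 on the log2 scale, in genes above that level. In bulk RNA, fewer cells of a type and less RNA per cell cannot be told apart. When the same rules were applied to the array's negative controls, 5.47% of those above the level were past 2-fold and 25.5% past 1.5-fold, so a difference of that size in a single gene is not outside the spread of these controls.

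Of the dendritic cell markers, 11 of 12 reached the level rule, among them Itgax, Cd74, Csf2ra and Csf2rb, and Flt3 did not. Their linear signals summed to 17916 in CBA/J and 21375 in C57BL/6. The class II gene H2-Ab1 was the only one of them past 2-fold (10.36 in CBA/J, 11.65 in C57BL/6). As deposited, Cd74 (-0.30), H2-Aa, Zbtb46, Irf4, Itgax and Csf2rb (-0.04) also had the higher signal in C57BL/6. Ciita (0.92), Cd86, Csf2ra and Irf8 had the higher signal in CBA/J. Most of the gap between the sums lies in H2-Ab1, Cd74 and H2-Aa. Macrophage markers summed to 8697 and 6050, and neutrophil markers to 1412 and 446. Of these, Mrc1, Ly6g, Ngp, S100a8 and S100a9 were past 2-fold higher in CBA/J, as were 1.35% of all genes that reached the level rule. Fcgr1 and Emr1, both at 0.99, lay just under 2-fold. Mertk (0.80), Csf1r (0.51) and Cd68 (0.18) were also higher in CBA/J. Camp and Ltf did not reach the level rule. T cell markers summed to 472 and 547, B and plasma cell markers to 856 and 883, NK cell markers to 174 and 191, and stromal markers to 783 and 646. Of the T cell markers only Cd28 of 10 reached the level rule, and Cd3d, Cd3g, Cd4, Trat1 and Icos lay below the median of the negative controls on both arrays. Of the 8 B and plasma cell markers only Sdc1 reached it, at 9.17 and 9.26, and it makes up most of their sums. Cd79a, Ms4a1 and Fcrla lay below that median on both arrays.

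2 members were past 2-fold, both higher in C57BL/6, and none was past 2-fold higher in CBA/J. The signal of Tnfrsf9, the gene of the costimulatory receptor 4-1BB, was 8.26 on the CBA/J array and 10.91 on the C57BL/6 array. That of Tnfsf4, the gene of OX40 ligand, was 5.56 and 7.91 in the same order, which holds for every pair of values below. The 2 genes were 6.9% of the 29 that reached the level rule, where 2.14% of all 11448 such genes were past 2-fold, 0.795% of them higher in C57BL/6 and 1.35% higher in CBA/J. Tnfsf4 reached the level rule only through the C57BL/6 array, where it is high, and on neither array did its signal pass the negative controls' 95th percentile, 8.28 for CBA/J and 8.17 for C57BL/6. At 1.5-fold the superfamily divided evenly, with 3 members higher in CBA/J, as were 4.45% of all genes, and 3 higher in C57BL/6, as were 2.47%. These 6 were 20.7% of the 29 genes that reached the level rule, out of 43 members in all, where 6.93% of all genes that reached it were past 1.5-fold, and the negative controls had the higher share given above. Of the 6, Tnfsf4, Tnfsf15, Ltb and Tnfsf8 reached the level rule only through the array where they are high, so the share is not support for a difference of the family. With both arrays required to reach the level, an alternative chosen after seeing the data, 2 of 23 members (8.70%) were past 1.5-fold, against 5.42% of 10474 genes. These were Tnfrsf9 and Tnfrsf21. By sign alone, 18 of the 29 members were higher in C57BL/6 and 11 were higher in CBA/J, against 38.1% and 61.2% of all genes; these shares depended on the scaling of the arrays and with each array centred on its median 22 members were higher in C57BL/6 and 7 in CBA/J, where 56.2% of all genes were then higher in C57BL/6.

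**Figure D1:**
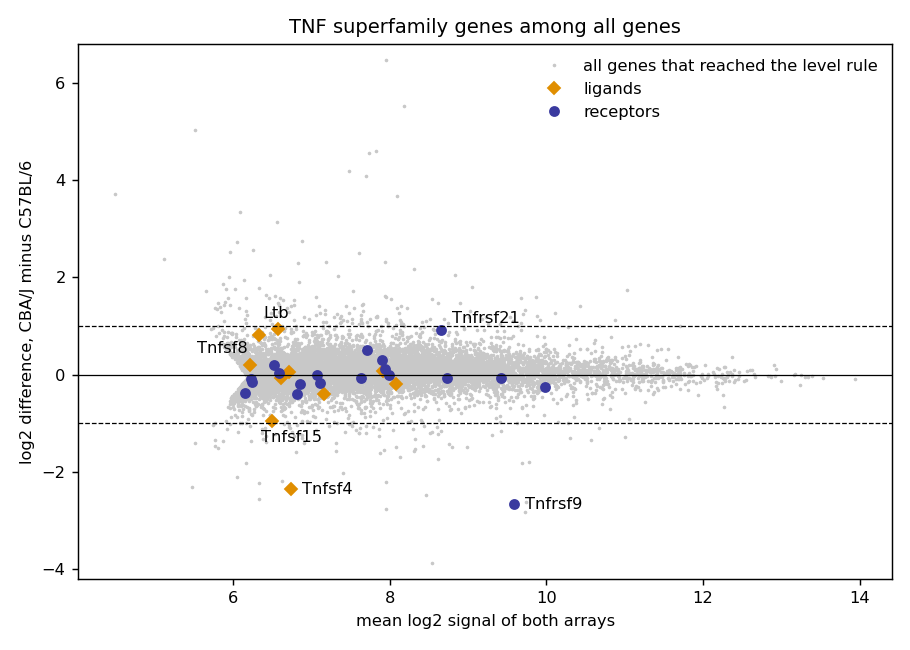
Log2 difference (CBA/J minus C57BL/6, y axis) against the mean log2 signal of both arrays (x axis) for the 11448 genes that reached the level rule, with 10 ligands as diamonds and 19 receptors as circles; dashed lines mark 2-fold. Tnfrsf9 and Tnfsf4 lie apart below the lower line, and Ltb, Tnfrsf21, Tnfsf8 and Tnfsf15 lie just inside the lines.

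The RefSeq promoter table (GRCm38.p6) holds 34 of the 43 members and 23 of the 29 that reached the level rule. Those shown are the 250 bases before each listed start of Tnfrsf9, which differed most, and of Ltb, Tnfsf15 and Tnfsf8, 3 of the genes closest below 2-fold. Tnfsf4 is not among the promoters used here. That of Tnfrsf21, which was closer to 2-fold than Tnfsf8, was searched but is not shown. Capitals mark matches to the NF-kB consensus, a motif of 10 bases searched on both strands; overlapping matches are capitalised as 1 stretch. The strand is that of the gene, 5′ to 3′, and the intervals are chr4:150919905-150920154 (+) and chr4:150927749-150927998 (+) for the starts of Tnfrsf9, chr17:35194257-35194506 (+) for Ltb, chr4:63745060-63745309 (-) for Tnfsf15 and chr4:63861285-63861534 (-) for Tnfsf8.
Tnfrsf9, first start: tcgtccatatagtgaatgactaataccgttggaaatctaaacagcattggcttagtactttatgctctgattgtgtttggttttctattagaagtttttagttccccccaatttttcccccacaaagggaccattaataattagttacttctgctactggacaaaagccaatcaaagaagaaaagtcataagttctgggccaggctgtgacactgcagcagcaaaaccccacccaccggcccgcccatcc
Tnfrsf9, second start: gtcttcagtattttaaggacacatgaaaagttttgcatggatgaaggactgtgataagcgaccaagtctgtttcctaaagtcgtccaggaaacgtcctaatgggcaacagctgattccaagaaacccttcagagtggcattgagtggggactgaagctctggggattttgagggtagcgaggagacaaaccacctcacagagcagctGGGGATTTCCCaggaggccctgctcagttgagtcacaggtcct
Ltb: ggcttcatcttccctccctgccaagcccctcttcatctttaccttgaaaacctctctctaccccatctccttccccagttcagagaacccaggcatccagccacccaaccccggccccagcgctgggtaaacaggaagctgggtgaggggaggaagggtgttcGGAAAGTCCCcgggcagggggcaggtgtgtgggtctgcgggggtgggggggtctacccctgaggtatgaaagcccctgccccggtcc
Tnfsf15: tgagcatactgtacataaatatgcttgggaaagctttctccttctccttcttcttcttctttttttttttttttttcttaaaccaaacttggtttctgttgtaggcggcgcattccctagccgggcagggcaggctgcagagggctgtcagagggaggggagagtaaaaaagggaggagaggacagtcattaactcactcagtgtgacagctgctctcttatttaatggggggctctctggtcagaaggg
Tnfsf8: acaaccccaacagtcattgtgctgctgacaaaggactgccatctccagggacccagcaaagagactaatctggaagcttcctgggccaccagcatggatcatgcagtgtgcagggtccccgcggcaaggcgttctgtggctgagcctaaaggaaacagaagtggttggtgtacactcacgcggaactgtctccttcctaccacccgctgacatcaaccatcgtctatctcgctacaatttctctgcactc

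The second Tnfrsf9 promoter holds 2 overlapping matches to the consensus, which together cover 11 bases and begin 43 bases before the start. The Ltb promoter holds 1 match, which begins 87 bases before the start. No match was found in the first Tnfrsf9 promoter, in that of Tnfsf15, in that of Tnfsf8 or in that of Tnfrsf21. A match is a description of the letters only: 7.25% of all 32851 promoters of the same length hold one, and so do 2 of the 25 promoters of members that reached the level rule (8%). The sequences are those of the C57BL/6J reference, and the CBA/J sequence was not used here. The sequence TATAAA, searched on both strands, occurs in 12% of those 25 promoters and in 12.4% of all promoters.

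Among the ligands, 10 of 17 reached the level rule. Their median difference was -0.01, beside 0.08 over all genes that reached it, with 5 higher in each strain as deposited. Tnfsf4, whose product on antigen-presenting cells binds OX40 on activated T cells, differed most of these 10. Its difference of -2.35, a 5.11-fold higher signal in C57BL/6, rests on a CBA/J signal near 5.49, the median of the negative controls, and the fold is uncertain. Tnfsf15 encodes TL1A, a costimulator of T cells, and had 6.02 in CBA/J and 6.96 in C57BL/6. The difference of -0.95 was 1.93-fold and passed 2-fold when the arrays were centred on their medians (-1.06). Tnfsf11, which encodes RANK ligand, known for its role in osteoclast formation and in dendritic cell survival, had 6.96 and 7.35, a difference of -0.39.

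Ltb and Tnfsf8 were the ligands that leaned furthest toward CBA/J. Ltb encodes lymphotoxin beta, which anchors lymphotoxin alpha in the membrane and serves in the organisation of lymphoid tissue. It had 7.04 in CBA/J and 6.10 in C57BL/6, a difference of 0.94 or 1.92-fold. Tnfsf8, which encodes CD30 ligand, had 6.73 in CBA/J and 5.92 in C57BL/6, a difference of 0.81 or 1.76-fold. Both stayed under 2-fold in every alternative scaling, with ranges over the settings of 0.82 to 0.94 for Ltb and 0.70 to 0.90 for Tnfsf8.

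The other ligands that reached the level rule differed by less than 0.2 as deposited. Over the settings Tnf ranged from -0.34 to -0.19 and Tnfsf13b from 0.08 to 0.27. Tnf itself, the cytokine that gives the family its name, had 7.98 in CBA/J and 8.17 in C57BL/6. Tnfsf13b, which encodes the B cell survival factor BAFF, had 6.31 and 6.12. Tnfsf9, which encodes the ligand of 4-1BB, had 6.57 and 6.64. Tnfsf14, which encodes LIGHT, had 6.74 and 6.68, and the sign of its difference turned when the arrays were centred. The probe set named Tnfsf12-tnfsf13, a transcript that joins the genes of TWEAK and APRIL, had 7.95 and 7.88, and its sign turned under all 3 alternative scalings. Signals of the separate genes cannot be told apart in it.

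The remaining 7 ligands, Cd40lg, Cd70, Eda, Fasl, Lta, Tnfsf10 and Tnfsf18, did not reach the level rule. Their signals ranged from 4.01 to 5.34 in CBA/J and from 4.29 to 5.65 in C57BL/6. Cd40lg, Cd70, Fasl and Tnfsf18 lay below the median of the negative controls on both arrays, which was 5.49 for CBA/J and 5.27 for C57BL/6. Cd40lg and Fasl are best known from activated T and NK cells, whose markers are given above.

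**Figure D2:**
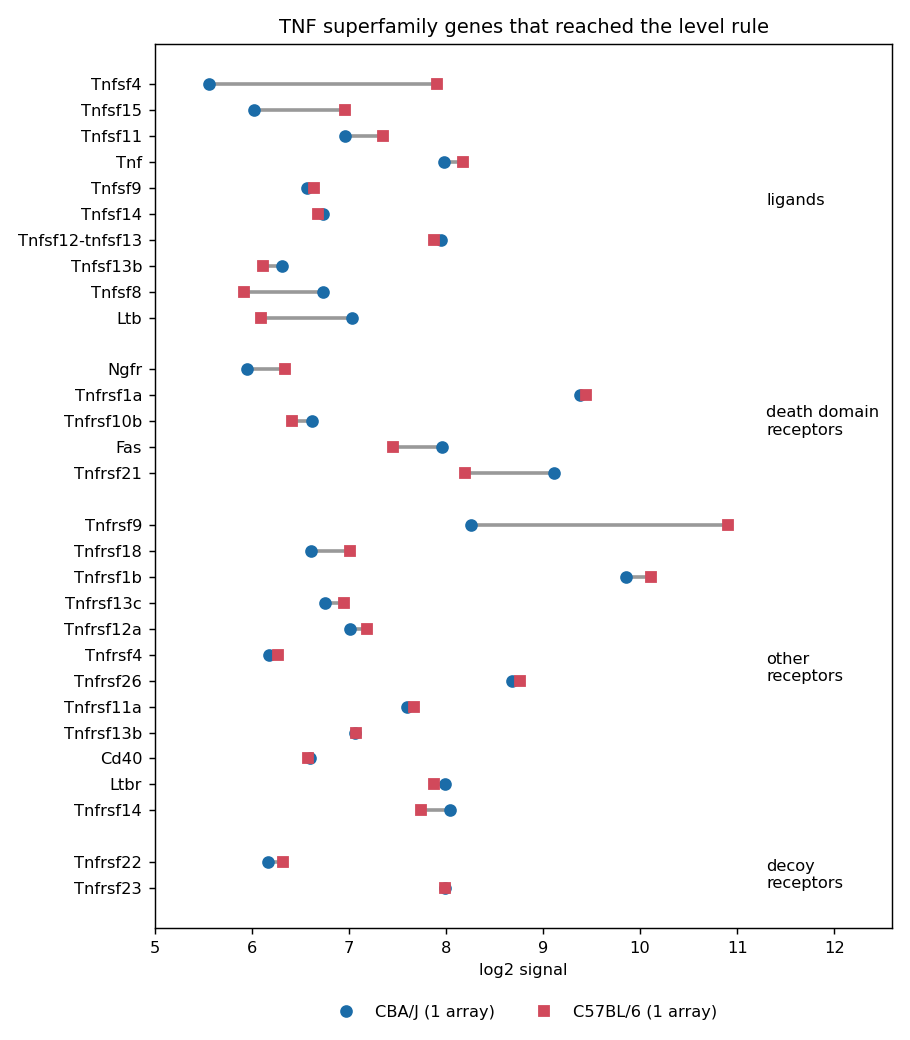
Log2 signal (x axis) on the CBA/J array (circles) and on the C57BL/6 array (squares) for the 29 members that reached the level rule, grouped by role; each symbol is 1 array, and signals of different genes are not on a common scale. Tnfsf4 and Tnfrsf9 have the widest gaps; the signs of Tnfsf14, Tnfsf12-tnfsf13, Cd40 and Ltbr turn under at least 1 other scaling.

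Among the receptors grouped here by their death domain, 5 of 6 reached the level rule, and none was past 2-fold. Edar, whose product also has such a domain, was counted with the other receptors and was below the level rule at 5.23 and 5.31. Tnfrsf21 encodes death receptor DR6, and had 9.11 in CBA/J and 8.19 in C57BL/6, a difference of 0.92 or 1.89-fold. Fas, which encodes the receptor of Fas ligand and starts apoptosis, had 7.96 and 7.46, a difference of 0.50. Both leaned toward CBA/J. Tnfrsf10b, the gene of the TRAIL receptor, had 6.62 and 6.42. Tnfrsf1a, the gene of the widely expressed TNF receptor, had 9.38 and 9.44, and Ngfr, which encodes the p75 neurotrophin receptor, had 5.95 and 6.34. The signal of Tnfrsf21 passed the 95th percentile of the negative controls on both arrays given above, that of Fas on neither.

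Of the 17 other receptors, 12 reached the level rule, with 9 higher in C57BL/6 and 3 higher in CBA/J as deposited, and a median difference of -0.08. Over all genes that reached it, 38.1% were higher in C57BL/6 as deposited and 56.2% with each array centred. Such counts by sign depend on the scaling. Tnfrsf9, a receptor that T cells, NK cells and some myeloid cells display after activation, stood apart at -2.65, a 6.29-fold higher signal in C57BL/6. It was exceeded toward that strain by 3 genes. Its CBA/J signal of 8.26 lay just under that percentile and its C57BL/6 signal above it. Over all settings its difference ranged from -2.77 to -2.65, and that of Tnfsf4 from -2.47 to -2.35.

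No other receptor of this group differed by 0.4 or more as deposited, and Tnfrsf18 ranged from -0.51 to -0.40 over the settings. Tnfrsf18, which encodes the costimulatory receptor GITR, had 6.61 in CBA/J and 7.01 in C57BL/6. Tnfrsf1b, the gene of the TNF receptor found mostly on immune cells, had 9.85 and 10.11. Tnfrsf14, which encodes the LIGHT receptor HVEM, had 8.05 and 7.75. These differences, -0.40, -0.26 and 0.30, are of the order of the robust SD of all genes that reached the level rule, 0.26. Cd40, the receptor through which helper T cells license dendritic cells, had 6.60 and 6.57, and Ltbr, the lymphotoxin beta receptor gene, had 7.99 and 7.88. The signs of Cd40 and Ltbr turned under 2 of the 3 alternative scalings each.

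The receptors of the BAFF system were close to equal. Tnfrsf13b, which encodes TACI, had 7.06 in CBA/J and 7.08 in C57BL/6. Tnfrsf13c, which encodes the BAFF receptor, had 6.75 and 6.95. Of the other members, Tnfrsf12a, the gene of the TWEAK receptor, had 7.02 and 7.19. Tnfrsf11a, which encodes RANK, had 7.60 and 7.67, Tnfrsf26 had 8.68 and 8.76, and Tnfrsf4, which encodes OX40, had 6.18 and 6.27. Of the 3 decoy receptors, Tnfrsf22 had 6.17 and 6.32 and Tnfrsf23 had 7.99 and 7.99. Tnfrsf11b, which encodes osteoprotegerin, was below the level rule at 5.98 and 5.35. The other receptors below it were Cd27, Edar, Tnfrsf17, Tnfrsf19, Tnfrsf25 and Tnfrsf8. Together with Tnfrsf11b they ranged from 4.92 to 6.16 in CBA/J and from 4.83 to 6.04 in C57BL/6.

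Each gene past 2-fold was set beside its partner, which in both cases differed by less than 0.1 as deposited. Tnfrsf9 differed by -2.65 and its ligand Tnfsf9 by -0.07. Tnfsf4 differed by -2.35 and its receptor Tnfrsf4, at a signal near the median of the arrays, by -0.09. With the arrays centred on their medians these partners were at -0.19 for Tnfsf9 and -0.20 for Tnfrsf4, and the genes past 2-fold at -2.77 and -2.47. Likewise Ltb differed by 0.94 and its receptor Ltbr by 0.11, and Tnfsf15 differed by -0.95 while its receptor Tnfrsf25 was below the level rule at 5.37 and 5.51. The partner of Tnfsf8, Tnfrsf8, was below it at 6.16 and 6.04. Of 24 ligand and receptor pairs, 10 had both partners at or above the level rule. In 8 of these the partners differed in the same direction as deposited, among them those of Tnf with Tnfrsf1a and Tnfrsf1b. Tnfsf13b differed in the direction opposite to Tnfrsf13b and Tnfrsf13c. Pairs with Ltbr or Tnfsf14 depended on the scaling. Some genes, such as Tnf and Ltbr, enter more than 1 pair. No share for other gene pairs was computed, so this count is a description only. Tnfsf12-tnfsf13 (0.08) was not paired, and Tnfrsf12a, Tnfrsf13b and Tnfrsf13c differed by -0.17, -0.02 and -0.20.

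**Figure D3:**
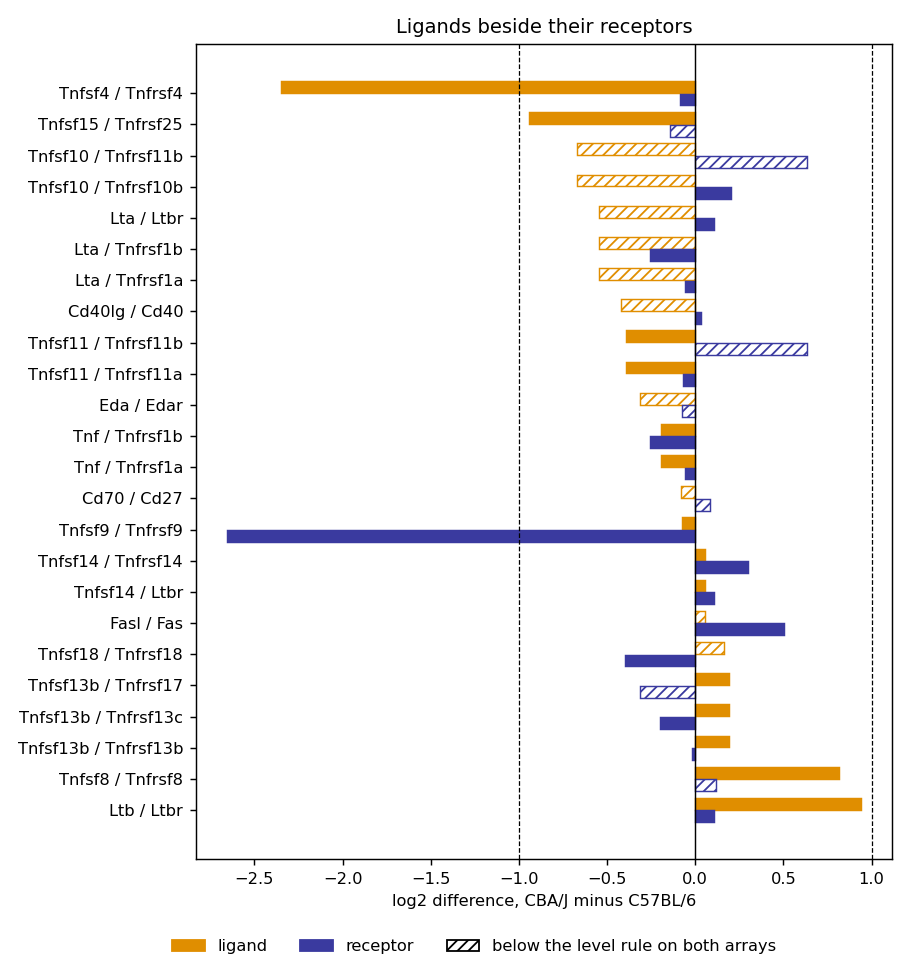
Log2 difference (CBA/J minus C57BL/6, x axis) of each ligand (upper bar) and its receptor (lower bar) in 24 pairs; hatched bars are genes below the level rule on both arrays, and dashed lines mark 2-fold. In the pairs of Tnfrsf9 and of Tnfsf4 1 partner extends past -2 and the other lies within 0.1 of 0 as deposited (-0.19 for Tnfsf9 and -0.20 for Tnfrsf4 with the arrays centred); the signs of Tnfsf14, Cd40 and Ltbr turn under another scaling.

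Several members lie next to each other in the genome, by the order of protein-coding genes in RefSeq, and some neighbours differed in opposite directions. Tnfsf15 and Tnfsf8 are adjacent on chromosome 4 and differed by -0.95 and 0.81. Ltb, Tnf and Lta are adjacent on chromosome 17, inside the major histocompatibility complex, where these strains carry different haplotypes. They differed by 0.94, -0.19 and -0.54, with Lta below the level rule at 4.88 and 5.42. Tnfsf4 is adjacent to Tnfsf18 on chromosome 1, and Tnfsf18 was low on both arrays at 4.84 and 4.68. On chromosome 7 the cluster of Tnfrsf26, Tnfrsf22 and Tnfrsf23 differed by -0.08, -0.15 and -0.01.

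Of the 6 nearest measured genes around Tnfrsf9, 3 on each side, 3 reached the level rule, with differences from -0.47 to -0.10. Of the 6 around Tnfsf4, 2 reached it, at -0.59 and 0.06. None of these flanking genes was past 2-fold, where 2.14% of all genes that reached the level rule were. So few genes cannot show whether a difference is confined to Tnfrsf9 or Tnfsf4. Next to Ltb, the measured neighbours Lst1 and Aif1 differed by 0.30 and 0.86, toward CBA/J as Ltb did, and Tnf on the other side did not. The array's probes follow the C57BL/6 reference genome, so a CBA/J sequence difference inside a probe can lower its signal. The part of such mismatches in the differences of Tnfrsf9, Tnfsf4 and Tnfsf15, and of the class II genes H2-Ab1 and H2-Aa, was not tested.

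**Figure D4:**
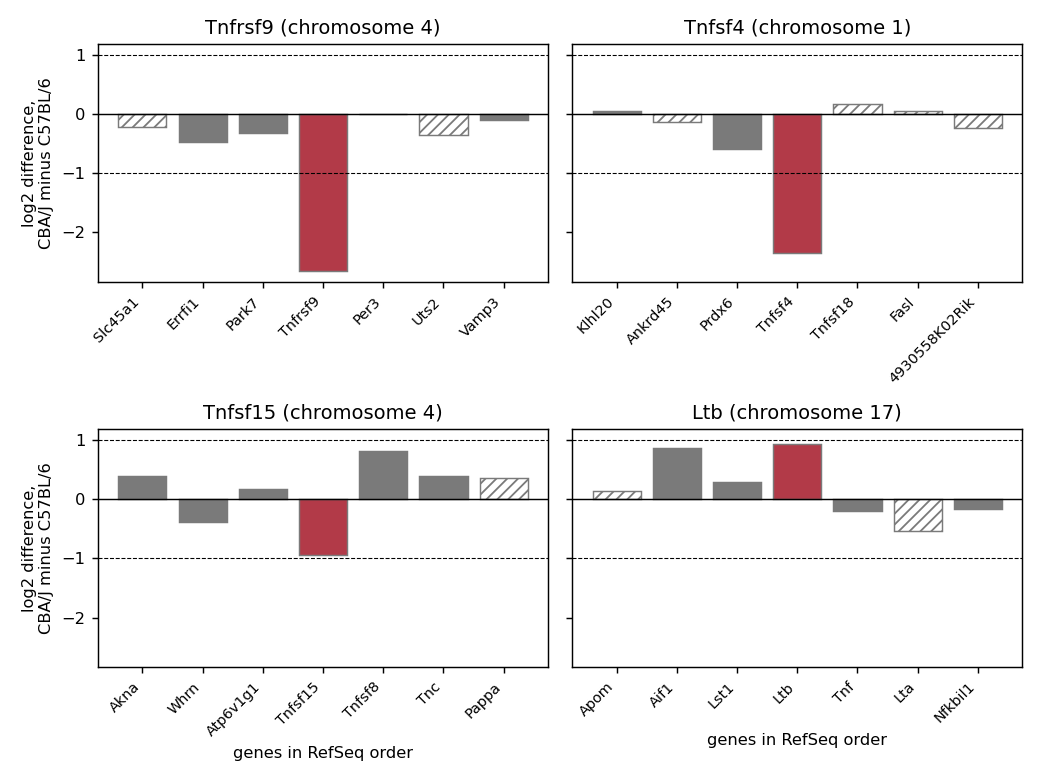
Log2 difference (CBA/J minus C57BL/6, y axis) of Tnfrsf9, Tnfsf4, Tnfsf15 and Ltb (red) and of the 3 nearest measured genes on each side (grey), in RefSeq order along the chromosome; hatched bars are genes below the level rule, and dashed lines mark 2-fold. Tnfrsf9 and Tnfsf4 extend past -2 and none of their flanking genes reaches 2-fold, where 2.14% of all genes that reached the level rule do.

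Some genes outside the superfamily differed in the same direction as Tnfrsf9 and Tnfsf4. The maturation genes Ccl22, Ccl17, Ccr7 and Cd83 and the chemokine gene Ccl5 were all past 2-fold higher in C57BL/6, from -2.83 for Ccl5 to -1.33 for Cd83. In that direction, 0.795% of the 11448 genes tested differed by as much as 2-fold. The listed genes had been chosen with their values known and are no independent support. Cd86, Cd40 and Relb, which are also linked to maturation, differed by only 0.08, 0.03 and -0.28 as deposited. The sign of Cd40 depended on the scaling. A uniform shift of maturation genes is therefore not shown. Tnfrsf9 and Tnfsf4 are also known from activated mast cells. Of the 7 mast cell and basophil markers, 2 reached the level rule. Cpa3 had 5.04 in CBA/J and 7.61 in C57BL/6, and Kit had 6.18 and 6.56. The summed linear signal of the 7 markers was 230.1 in CBA/J and 423.6 in C57BL/6. Most of this gap lies in Cpa3, whose CBA/J signal was below the median of the negative controls, 5.49. Tpsb2 had 5.66 and 5.76 and did not reach the level rule. Fcer1a, Ms4a2, Mcpt8 and Cma1 lay below the median of the negative controls on both arrays. The part of such cells, and of the macrophage and neutrophil markers that were higher in CBA/J, in these differences was not tested.

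Downstream of the receptors, all 49 listed signalling genes reached the level rule and none was past 2-fold, against the background of 2.14% of all genes. At 1.5-fold 1 of the 49 (2.04%) was called, against 6.93% of all genes. That gene was Traf1, an adaptor that binds 4-1BB and other receptors of the family and is itself induced by NF-kB. It had 7.34 in CBA/J and 8.03 in C57BL/6, a difference of -0.69. The next largest were Adam17, which encodes the protease that sheds TNF, at 0.58, Map3k5, a stress-activated kinase gene, at 0.55, and Xiap, a caspase inhibitor gene, at 0.51. These 4 kept their direction under every scaling.

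Of the 49 genes, 25 differed by less than 0.2 as deposited. The median over the 49 genes was 0.04, with 27 higher in CBA/J and 22 in C57BL/6. Its sign turned under all 3 alternative scalings, to between -0.08 and -0.04.

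**Figure D5:**
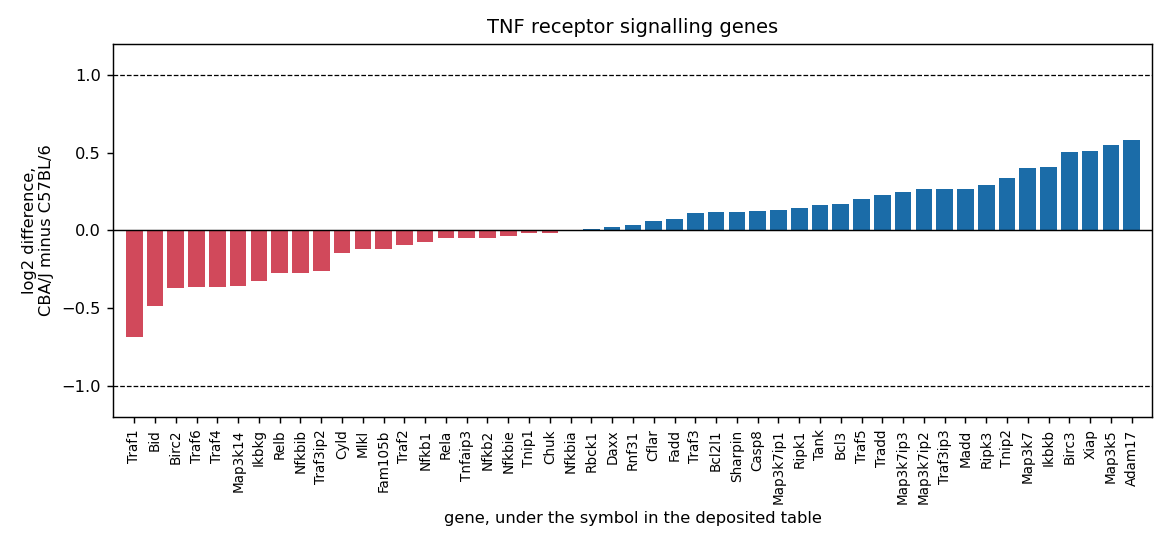
Log2 difference (CBA/J minus C57BL/6, y axis) of the 49 TNF receptor signalling genes in order of difference, 1 bar per gene under the symbol of the deposited table; dashed lines mark 2-fold. All bars lie between -0.69 for Traf1 and 0.58 for Adam17; bars close to 0 change sign with the scaling, as the list's median does.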

How the data were processed

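The values of the 2 arrays are log2 signals of probe sets as the authors deposited them. The submitters' processing notes name Affymetrix Expression Console 1.1; how probes were summarized is not stated in them. Per the file headers, the deposited columns also hold a log2 difference and its linear ratio, CBA/J over C57BL/6. The sorted arrays differed by at most 0.16, so a difference shared by most genes can have been removed before deposit. The series matrix held the same values.

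Of 35557 probe sets, 24422 had 1 gene symbol, 25 of them dates restored through their accession, and 112 had several. The brightest probe set stood for a gene. Members, gene lists, pairs and markers were chosen with earlier results of these data known. Every member that reached the level rule is named; of the signalling genes, the 4 largest differences. Of the 49 signalling genes, 4 matched through an older symbol. Chromosomes are those of the deposited table; RefSeq (GRCm38.p6) gave gene order and promoters. Scaling, trend removal over 501 genes, level rule, size threshold, probe set choice and background were varied. Calculations were tested on simulated data. The number of arrays limits the precision. Python 3.11.15, numpy 2.4.6 and pandas 2.3.3 were used.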

Additional observations from a re-analysis of the deposited data

How the results depend on the processing

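The count of members past 2-fold higher in C57BL/6 was 2 under every scaling but 1, without a level rule and under a stricter one. The exception was centring each array on its median, which gave 3 by adding Tnfsf15 (-1.06). The alternatives in probe set choice and background also gave 2, but they could not change the difference of a member that reached the level. Each member had 1 probe set, and none that reached the level lay below the negative controls' median on either array. The count was 3 at 1.5-fold and 2 at 3-fold. With the level required on both arrays, an alternative chosen after seeing the data, it was 1, since Tnfsf4 is then not tested. The count higher in CBA/J was 0 under these alternatives and at 3-fold, and 3 at 1.5-fold, where a lower threshold admits Ltb, Tnfrsf21 and Tnfsf8. No member past 2-fold changed direction. The median of all members tested ranged from -0.19 to -0.06, that of the ligands from -0.19 to -0.01 and that of the receptors from -0.19 to -0.03. Centring moved every difference by -0.11, and members higher in C57BL/6 then numbered 22 of 29 (75.9%), against 18 (62.1%) as deposited; over all genes the share was 56.2% against 38.1%. The direction of small differences therefore depends on the scaling. The median of the signalling genes turned from 0.04 to -0.04 after quantile normalization, -0.08 after centring and -0.07 after subtraction of the trend with signal. The series matrix gave identical values. Of the 29 members, 23 did not pass the 95th percentile of the negative controls on either array, which limits what their differences can show. No paired analysis was possible because each strain had 1 array.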
